A study of Homo sapiens with 2 samples.

Results

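The genes described here encode the gel-forming mucins MUC2, MUC5AC, MUC5B and MUC6, the mucus protein FCGBP, the trefoil factors TFF1, TFF2 and TFF3, the transcription factor SPDEF and the protein disulfide isomerase AGR2. They were chosen by symbol as gel-forming mucins and genes of goblet cell secretion, with earlier results of these data known. Every probe set annotated with one of these symbols was read, which gave 20 probe sets for 10 of the 19775 genes measured. A probe set is a group of short probes on the array that together measure one transcript. RNA came from A549, an established cell line from a human adenocarcinoma of the lung, after 12 days of either of 2 cultures. The monolayer was attached and fed with DMEM, 10% FBS, glutamine, penicillin and streptomycin. Spheroid cells were suspended in DMEM/F12 without serum, with N2 supplement, EGF at 20 ng/ml and bFGF at 10 ng/ml, so that the cultures differed in attachment, in serum, in base medium and in growth factors at once, and these cannot be told apart. With 1 array per culture, of the type Affymetrix Human U133 plus 2.0, no difference has a replicate check and no test was run. The question behind the comparison was which genes differ when lung cancer cells grow as spheres.

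Mucus is a gel of very large secreted glycoproteins, the gel-forming mucins, which goblet and other mucous cells fold and link by disulfide bonds in the endoplasmic reticulum and Golgi, pack into granules and release. MUC5AC and MUC5B are the main mucins of airway mucus, MUC2 is that of the intestine, and MUC6 is a mucin of gastric glands. FCGBP and the trefoil factors are secreted with the mucins, AGR2 assists their folding, and SPDEF is an ETS family factor known for driving goblet cell differentiation.

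Signals were used on the linear scale of the deposited table, whose trimmed mean, leaving out 2% at either end, came to 500.1 on either array. Signals below the array's median, 108 in monolayer and 119 in spheroid culture, were raised to it and are called at the floor. A ratio with 1 culture at the floor is a lower bound, written "at least", and a ratio was read as past the limit at 3-fold. Where a gene had several probe sets, the one with the highest mean log2 signal stood for it. All 15 measured genes of a list for A549 and lung adenocarcinoma epithelium were above the floor in both cultures, with a summed signal of 457424 in monolayer against 471903 in spheroid culture, and 3 of them were past the limit. Of these the keratin KRT7 was 3.75-fold lower in spheroid culture, and the keratin KRT19 and the glutathione peroxidase GPX2 were 4.64-fold and 5.71-fold higher. The submitters' free text for the samples mentions, in place of A549, cells of a hepatoma and treatment with a compound. Among 14 hepatocyte genes TTR, TF and APOA2 were at the floor on both arrays. At least 3-fold higher in spheroid culture were 3 (ALB, APOH and SERPINA1), beside 2.34% of all genes above a floor. ALB, SERPINA1, AFP and HP were above it in spheroid culture alone and so could only be higher. Of the 11 hepatocyte genes above a floor 9 were higher by any amount, beside 51.4% of all genes, and FGG and APOB were lower. The median log2 ratio of the 11 was 1.08. The summed signal of the list was 4600 and 17509. The part of this difference in the results was not tested. In RNA from a whole culture, fewer cells of a type and less RNA per cell cannot be told apart.

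Of the 10 genes, FCGBP, MUC5B, MUC5AC, TFF1 and SPDEF had signals at least 3-fold higher in spheroid culture, and none was at least 3-fold lower. These 5 compare with 2.34% of the 13229 genes above the floor on at least 1 array that were at least 3-fold higher, and 2.11% that were at least 3-fold lower. TFF3, AGR2, TFF2 and MUC6 were higher by less, and MUC2 was the only one with a lower signal. All 10 genes exceeded the floor somewhere, 4 of them (FCGBP, TFF2, TFF3 and MUC6) in spheroid culture alone, and for those 4 the direction follows from having passed. Over the 10 genes the median log2 ratio was 1.59, beside 0.02 over all genes above the floor. At a limit of 5-fold, 4 of the 10 genes were higher, beside 0.779% of all genes, and none was lower, beside 0.952%. At 2-fold the same 5 genes were higher, beside 6.86%, with TFF3 just short of the limit, and none was lower, beside 5.5%. By any amount 9 of the 10 were higher, beside 51.4%. Among the genes past the 3-fold limit the smallest fold was that of SPDEF, 4.56, and the next below the limit was that of TFF3, at least 2.00. MUC5AC and MUC5B are on the study's own list of upregulated genes, chosen on these arrays, so their direction is not independent evidence. Without them 3 of the other 8 genes passed the limit, and of these FCGBP was above the floor in spheroid culture alone. Those 8 were read on the same arrays and were also chosen with earlier results of these data known. They are therefore not independent evidence either.

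**Figure D1:**
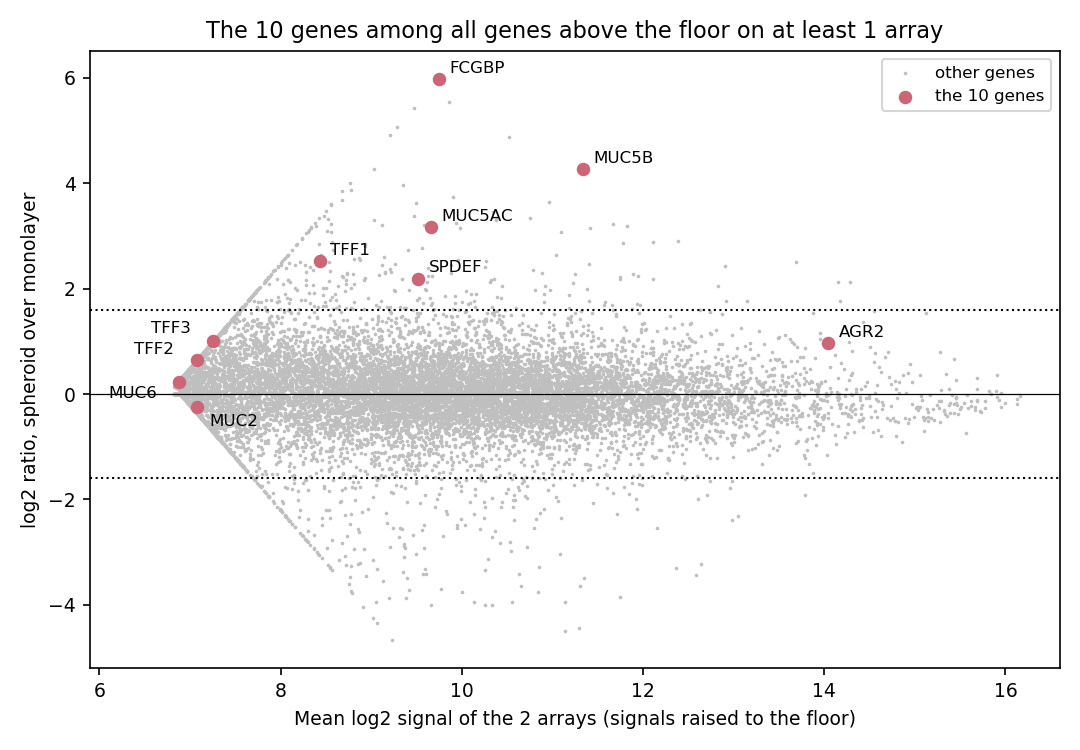
Log2 of the spheroid signal divided by the monolayer signal against the mean log2 signal of the 2 arrays for the 13229 genes above the floor on at least 1 array, each point being 1 gene and the dotted lines 3-fold lower and 3-fold higher. FCGBP lies highest, at a lower bound of 5.98 that its monolayer signal below the floor sets, MUC5B lies at 4.27, and MUC2, MUC6, TFF2 and TFF3 lie near the left edge, where signals are close to the floor.

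The airway mucins MUC5B and MUC5AC were far higher in spheroid culture, whereas MUC2 and MUC6 stayed close to the floor in both cultures. The MUC5B signal, 590.0 in monolayer, was 11366 in spheroid culture, 19.3-fold higher, with a log2 ratio of 4.27 that was the 7th highest among the 13229 genes. Its other probe set read 7.97 and 178, at least 1.65-fold higher. Both probe sets thus had the higher signal in spheroid culture, but the latter lay below the floor in monolayer and only a little above it in spheroid culture, so its bound says little about the size of the difference.

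MUC5AC was measured by 4 probe sets, which split into pairs. The probe set that stands for the gene read 270.3 in monolayer against 2417 in spheroid culture, 8.94-fold higher. A further probe set read 14.8 and 2290, at least 21.2-fold higher, or 154.6-fold without the floor. The study's own list gives a fold of that size for MUC5AC, and one of 8.94 under a different symbol. Of this pair only the probe set that stands for the gene was above the floor in monolayer. The remaining pair, both built on 1 and the same sequence record according to the platform annotation, did not show this difference. One of them read 84.4 in monolayer and 129 in spheroid culture, at least 1.19-fold higher, and the other read 457 and 350.1, which is 1.31-fold lower. The log2 ratios of the 4 probe sets spanned 4.79, whereas the difference between the 2 brightest probe sets had an SD of 0.49 over the 5433 genes where both exceeded the floor in each culture. The names of the pair with the higher signals end in _s_at and _x_at, the Affymetrix marks for probe sets that match several transcripts or contain probes similar to other sequences, and those of the other pair end in _at alone. When probe sets with these marks were left out, the log2 ratio of MUC5AC was -0.38, so the direction for MUC5AC depends on which probe sets are read.

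MUC2 read 147 in monolayer against 123 in spheroid culture, 1.19-fold lower, on its only probe set. Both values were barely above the floors of 108 and 119. MUC6 read 101 in monolayer, under the floor, and 127 in spheroid culture, at least 1.18-fold higher, of which a ratio of 1.10 is that of the 2 floors themselves. Its other probe set, at 10.1 and 16.3, was at the floor on both arrays. The intestinal and the gastric gland mucin were thus measured near the limit of what the arrays resolve, and a difference between the cultures was not detectable for either.

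**Figure D2:**
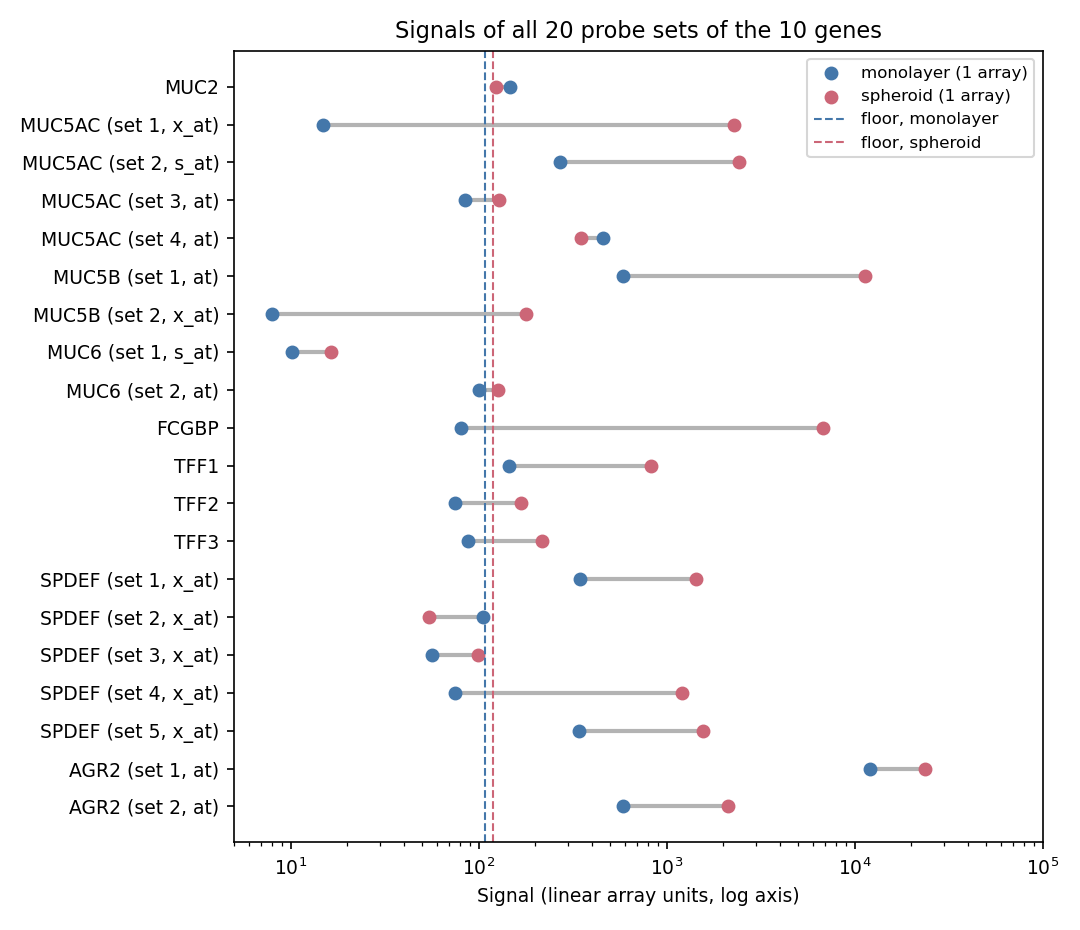
Signal in monolayer (blue) and in spheroid culture (red) on a log axis for each of the 20 probe sets of the 10 genes, 1 array per culture, with the floor of each array as a dashed line. Of the 9 probe sets above the floor on both arrays 7 were higher in spheroid culture and 2 lower, 8 more passed the floor in spheroid culture alone and so could only be higher, and the 4 probe sets of MUC5AC split into a pair that is far higher and a pair that is not.

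FCGBP, a mucus protein that is built of repeated von Willebrand factor-type domains and binds to the mucin network, had the highest log2 ratio of all 13229 genes with signals raised to the floor, although its own is a lower bound. It read 80.7 in monolayer, below the floor, against 6824 in spheroid culture, at least 63.1-fold higher. It had rank 1 in 6 of 9 ways of processing, rank 2 when the floor was left out or set to the 25th percentile, and rank 3 at the 75th, so its exact place depends on the floor. FCGBP has 1 probe set, so no second probe set bears on this value. On a list of proteins with such domains that leaves out the mucins described above, 10 genes were measured. Among them FCGBP alone passed the limit upward, SUSD2 passed it downward, BMPER lay between and 7 were at the floor on both arrays, among them VWF and the salivary gland mucin gene MUC19. SUSD2, a membrane protein with such a domain, was 4.85-fold lower, with signals of 7387 and 1523, and BMPER, a BMP-binding protein, was 2.00-fold lower, with signals of 272 and 136. The median log2 ratio of the 3 above the floor was -1.0.

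Trefoil factors, small cysteine-rich peptides that are secreted with mucins and aid repair of the mucosa, all had higher signals in spheroid culture, 1 of the 3 past the limit. TFF1, known from gastric surface cells, read 145 in monolayer against 828 in spheroid culture, 5.72-fold higher. TFF3, the trefoil factor of intestinal goblet cells, read 87.7 and 216, at least 2.00-fold higher. TFF2, of gastric mucous neck cells, read 74.7 and 168, at least 1.55-fold higher. Each was measured by a single probe set. TFF3 and TFF2 were below the floor in monolayer and at most 216 in spheroid culture, so that TFF1 alone had a spheroid signal well clear of the floor. With the floor at the 75th percentile of each array the log2 ratio of TFF1 was 0.79, under the limit.

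SPDEF, the ETS factor of goblet and other secretory cells, read 343 in monolayer against 1566 in spheroid culture, 4.56-fold higher. Another probe set, reading 346 and 1428, was 4.13-fold higher, and a further one, reading 74.6 and 1204, was at least 11.1-fold higher. The other two were at the floor on both arrays, at 106 and 54.5 and at 56.4 and 99.8. The probe sets reading 343 and 346 in monolayer, above the floor on both arrays, thus had the higher signal in spheroid culture. The one reading 74.6 in monolayer was above the floor in spheroid culture alone and so could only be higher. All 5 probe sets of SPDEF have names that end in _x_at, so SPDEF has no value when such probe sets are left out.

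AGR2, the endoplasmic reticulum disulfide isomerase needed for folding of mucins, was well above the floor in both cultures. It read 12070.3 in monolayer against 23574 in spheroid culture, 1.95-fold higher. The other probe set read 586 and 2128, 3.63-fold higher and past the limit. Both of its probe sets thus had the higher signal in spheroid culture, and only one passed the limit. Averaged over both probe sets as a geometric mean, its log2 ratio was 1.41. Of the 20 probe sets of the 10 genes 3 stayed at the floor throughout. Of the 17 above a floor, 9 passed the limit upward, 0 passed it downward and 8 lay between. Over all probe sets above a floor the shares past the limit were 1.91% upward and 1.5% downward. Of the probe sets past the limit 3 were above the floor in spheroid culture alone and so could only be higher. Among the 9 probe sets above the floor on both arrays, 6 passed the limit upward and 0 downward.

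Sequence upstream of the start site was available in the RefSeq promoter table (GRCh38.p14) for 4 of the 10 genes. All 4 are shown. FCGBP had the highest bound, and SPDEF is the transcription factor of the set. AGR2 was well above the floor in both cultures, and MUC2 is the one with a lower signal in spheroid culture. The 250 bases before the start site lie at chr19:39934635-39934884, reverse strand for FCGBP, at chr6:34556330-34556579, reverse strand for SPDEF, at chr7:16805000-16805249, reverse strand for AGR2, and at chr11:1074624-1074873, forward strand for MUC2. Sequences are written 5′ to 3′ on the strand of the gene, and capitals mark the 1 match to a motif searched for, an AP-1 motif.
FCGBP: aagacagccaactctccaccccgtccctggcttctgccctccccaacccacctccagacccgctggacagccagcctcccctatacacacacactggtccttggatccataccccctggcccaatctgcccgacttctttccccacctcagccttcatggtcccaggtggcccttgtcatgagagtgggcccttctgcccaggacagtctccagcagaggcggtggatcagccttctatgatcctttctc
SPDEF: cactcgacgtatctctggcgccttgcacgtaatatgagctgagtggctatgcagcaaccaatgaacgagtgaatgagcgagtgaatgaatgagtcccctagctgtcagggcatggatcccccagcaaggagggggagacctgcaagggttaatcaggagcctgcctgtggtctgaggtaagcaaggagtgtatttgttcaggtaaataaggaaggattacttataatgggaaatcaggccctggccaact
AGR2: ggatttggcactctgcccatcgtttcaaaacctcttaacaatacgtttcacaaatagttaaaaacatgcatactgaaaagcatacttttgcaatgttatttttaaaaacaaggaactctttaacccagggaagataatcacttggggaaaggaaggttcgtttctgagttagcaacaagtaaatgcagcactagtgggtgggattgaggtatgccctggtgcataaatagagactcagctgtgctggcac
MUC2: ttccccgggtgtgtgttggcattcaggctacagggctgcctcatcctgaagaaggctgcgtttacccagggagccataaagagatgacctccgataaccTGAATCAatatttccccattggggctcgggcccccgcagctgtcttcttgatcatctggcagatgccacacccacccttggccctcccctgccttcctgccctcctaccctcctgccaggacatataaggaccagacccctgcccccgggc

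The motifs searched for on both strands in these windows were the TATA box TATAAA, the forkhead core TGTTTNC, the ETS core CCGGAA, the related core CCGGAT, the AP-1 motif TGANTCA, the cyclic AMP response core TGACGT and the GC box GGGCGG. MUC2 held TGANTCA, which begins 151 bases before its start site, and this motif was in 6.57% of the 35116 promoters of the table. The windows of FCGBP, SPDEF and AGR2 held none of the 7, which says only that these letters are not in these windows. Over all promoters the forkhead core was in 15.5%, the ETS core in 14.5%, the related core in 5.85%, the TATA box in 10.7%, the cyclic AMP core in 7.10% and the GC box in 42.6%. The GC content was 60.8% for FCGBP, 59.6% for MUC2, 50.8% for SPDEF and 40.4% for AGR2, beside a median of 58.0% over all promoters. CpG dinucleotides numbered 4, 6, 6 and 3 in that order, beside a median of 11, so all 4 windows hold fewer CpG sites than the median promoter.

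The 4 mucin genes lie next to each other on chromosome 11, in the order MUC6, MUC2, MUC5AC and MUC5B, and the 3 trefoil genes lie next to each other on chromosome 21. In the mucin cluster the neighbouring pair MUC5AC and MUC5B was past the limit while MUC6 and MUC2, beside them, were not. Of the 5 measured protein-coding genes on either side, 10 in all, 0 were past the limit, 9 lay between and 1 was at the floor on both arrays. Their median log2 ratio was 0.04. Of all genes above the floor on at least 1 array 2.34% were at least 3-fold higher and 2.11% lower. A count of 0 among so few neighbours therefore says little. AP2A2, an endocytosis adaptor subunit next to MUC6, had signals of 3178 and 2671, and TOLLIP, an adaptor of innate immune signalling next to MUC5B, had 859 and 885. Thus the difference at MUC5B, with a log2 ratio of 4.27, lay beside one of 0.04 at TOLLIP. DUSP8, a MAP kinase phosphatase, was the furthest above 0 of these neighbours, at 1.99-fold higher, and BRSK2, a kinase, the furthest below, at 1.80-fold lower.

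In the trefoil cluster TFF1 was past the limit, and TFF3 and TFF2 lay between. Of its 10 neighbours 0 were past the limit, 6 lay between and 4 stayed at the floor throughout. Their median log2 ratio was 0.34. Here too a count of 0 says little beside 2.34% of all genes higher and 2.11% lower. ABCG1, a sterol exporter next to TFF3, was 2.07-fold higher, with signals of 383 and 793. TMPRSS3, a serine protease next to TFF1, was at the floor on both arrays.

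**Figure D3:**
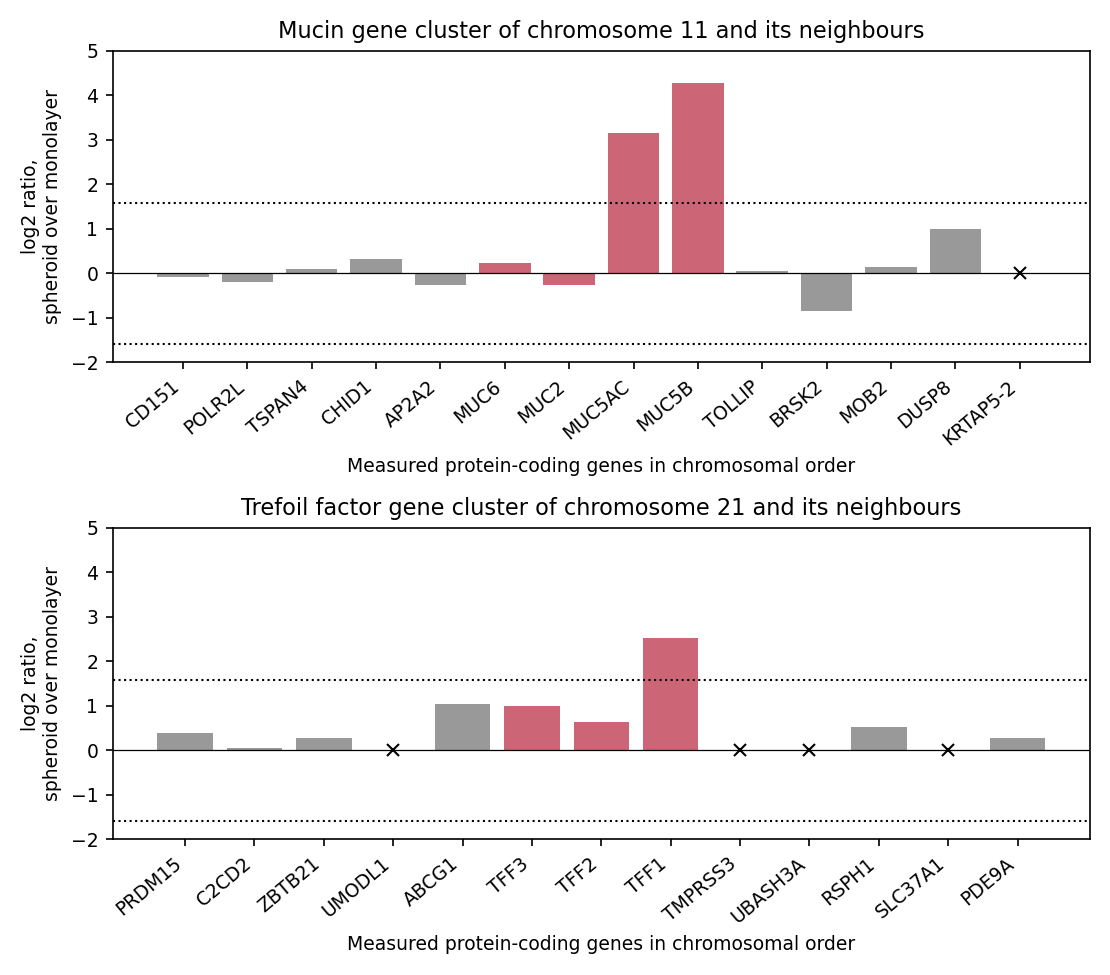
Log2 of the spheroid signal divided by the monolayer signal for the genes of the mucin cluster and of the trefoil cluster (red bars) and the 5 measured protein-coding genes on either side (grey bars), in chromosomal order and not to scale. A cross marks a gene at the floor on both arrays, the dotted lines mark 3-fold, and MUC5B, MUC5AC and TFF1 are the bars past them.

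The related lists hold genes of mucus production and hydration, membrane mucins, transcription factors, interleukin-13 responses and relatives by von Willebrand factor-type domains. Of their genes past the limit all but SUSD2, listed for such a domain, were higher in spheroid culture. Most of those measured lay between the limits. Of 157 on the related lists, without the 10 genes themselves, 18 passed the limit upward and 1 downward, 85 lay between and 53 had no signal above either floor. Of those 18, 8 passed the floor in spheroid culture alone, so that their direction follows from having passed. Among the 83 related genes above the floor on both arrays 10 were at least 3-fold higher and 1 lower, beside 1.96% and 1.93% of the 11528 such genes among all. Of the 104 above the floor on at least 1 array 17.3% were at least 3-fold higher and 0.962% lower, beside 2.34% and 2.11% of all genes. Their median log2 ratio was 0.29. Of 10 membrane mucins, 2 were at least 3-fold higher and 5 were at the floor. These were MUC1, at 375 and 1773, and MUC13, at 117 and 394. Of 21 transcription factors of goblet, gut or airway cells, SOX9, CREB3L1 and EHF were at least 3-fold higher, 13 lay between and 5 were at the floor. SOX9, a factor of progenitor and duct cells, was 5.08-fold higher. It is on the study's own list of upregulated genes, chosen on these arrays, so its direction is not independent evidence. CREB3L1, a membrane-bound factor of secretory cells, was at least 4.82-fold higher and above the floor in spheroid culture alone. EHF, an ETS factor of epithelia like SPDEF, was 3.74-fold higher, and all 5 of its probe sets above the floor were higher. ATOH1 and GFI1, which are known for the secretory lineage of the intestine, were at the floor on both arrays, as were CDX1, CDX2 and NKX2-1. ELF3, an epithelial ETS factor, was 2.02-fold lower.

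The secreted partners of mucins were at the floor more often than not. Of the 26 measured 5 were at least 3-fold higher, beside 2.34% of all genes above the floor on at least 1 array. CST1, a cystatin of secretions, read 102 and 3611, at least 33.4-fold higher, and TCN1, which binds cobalamin, read 101 and 833, at least 7.71-fold higher. The other 3 were BPIFA1 (at least 4.33-fold) and BPIFB1 (at least 3.43-fold), both airway lining proteins, and DMBT1 (3.14-fold), a scavenger receptor of mucus. DMBT1 alone of these 5 was above the floor on both arrays. The others passed it in spheroid culture alone and so could only be higher. Of all genes above the floor in spheroid culture alone 9.81% were at least 3-fold higher, and of those above it on both arrays 1.96%. CLCA1, ZG16 and RETNLB, all products of intestinal goblet cells, were among the 15 at the floor on both arrays. SLPI, a protease inhibitor of airway fluid, was 2.53-fold higher, and LCN2, at 1572 and 1024, was 1.53-fold lower. By any amount 7 of the 11 above the floor were higher and 3 lower, beside 51.4% of all genes higher. These 7 include CST1, TCN1, BPIFA1 and BPIFB1, which could only be higher.

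Of the machinery that folds, glycosylates and releases mucins, 54 genes exceeded a floor and 4 of these, or 7.41%, were at least 3-fold higher, beside 2.34% of all genes, while 0 were at least 3-fold lower. Among the 46 above the floor on both arrays 3, or 6.52%, were at least 3-fold higher, beside 1.96% of all such genes. Of the 4, ERN1 and ST3GAL1 were barely past the limit, at 3.01-fold and 3.06-fold. The medians of the 3 lists lay between 0.14 and 0.19. Of 18 protein disulfide isomerases and partners of folding only ERN1 was past the limit, 3.01-fold higher and with 1 of its 3 probe sets lower, and the median log2 ratio was 0.14. ERN1 is a sensor of unfolded proteins and no isomerase, and its goblet cell relative ERN2 read 131 and 128. AGR3, the closest relative of AGR2, read 27.3 and 134. Of 21 genes of mucin-type O-glycosylation, GALNT5 (3.44-fold) and ST3GAL1 (3.06-fold) were past the limit, with a median of 0.19. By any amount 10 of the 17 above the floor were higher, beside 51.4% of all genes, and 5 lower, GALNT14 by 2.20-fold. Of 25 genes of granule release SYTL5, which binds RAB27 on granules, was the only one past it, at least 4.09-fold higher, with a median of 0.15. SYTL5 was above the floor in spheroid culture alone. RAB27B itself was 2.18-fold higher, with signals of 8231 and 17948. By any amount 12 of the 21 genes of granule release above the floor were higher, beside the same 51.4%, and 8 lower. Of 17 ion channels, transporters and enzymes of mucus hydration, SLC26A9 (at least 5.34-fold), AQP3 (4.35-fold) and SLC12A2 (3.41-fold) were past the limit. SLC26A9 was above the floor in spheroid culture alone and so could only be higher. Of the 11 above the floor 9 were higher by any amount, beside 51.4% of all genes, and 2 lower, SCNN1A by 2.43-fold, at 525 and 216. SCNN1B was also above the floor in spheroid culture alone, and KCNQ1, the other lower gene, in monolayer alone. CFTR was at the floor on both arrays. Of 12 genes of interleukin-13 responses CST1 and the cytokine IL33 (at least 8.67-fold) were past the limit and 6 were at the floor, among them ALOX15, POSTN and CLCA1. CST1 and IL33 were both above the floor in spheroid culture alone and so could only be higher.

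Some markers of other epithelial cells were also higher in spheroid culture, while most lay between the limits or at the floor. Of 12 enterocyte genes 3 were at least 3-fold higher in spheroid culture, beside 2.34% of all genes above the floor on at least 1 array. These were CDH17, an intestinal cadherin, at 270.3 and 7980, ANPEP, a brush border peptidase, and VIL1, a brush border actin binder. ANPEP and VIL1 were above the floor in spheroid culture alone and so could only be higher. CDH17 is on the study's own list of upregulated genes, chosen on these arrays, so its direction is not independent evidence. The summed signal of the enterocyte list was 947 and 10181, of which CDH17 alone made up 270.3 and 7980. Of the 6 above the floor 5 were higher by any amount, beside 51.4% of all genes, LGALS4 only from 194 to 195. KRT20, at 57.0 and 313, was above the floor in spheroid culture alone, like ANPEP and VIL1, and so could only be higher. APOB was lower, at 189 and 161. FABP1, FABP2, SI, ALPI, CDHR5 and CDX2 were at the floor on both arrays. Of 10 genes of the gastric surface and glands none was past the limit and 7 were at the floor, among them GKN1, GKN2 and CTSE, with summed signals of 1319 and 1314. That list holds TFF2. Of 5 club cell genes BPIFA1, above the floor in spheroid culture alone, was past the limit. The other 4, SCGB1A1 included, were at the floor, and the list had summed signals of 165 and 572. Of 8 ciliated cell genes TPPP3, above the floor in spheroid culture alone, was past the limit. FOXJ1 was at the floor, and the list had summed signals of 696 and 1720. Of 8 alveolar type II genes none was past it, with summed signals of 1310 and 2171. Of 5 basal cell genes 4 were at the floor, with summed signals of 611 and 568. Genes of leukocytes, fibroblasts and endothelium numbered 15, of which none was at least 3-fold higher and CD14, of monocytes, was at least 3.66-fold lower. Their summed signals were 656 and 312 for leukocytes, 1247 and 948 for fibroblasts and 356 and 577 for endothelium. The part of these markers in the result for the mucins was not tested.

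How far each value depended on the processing differed between the 10 genes. FCGBP, with log2 ratios from 3.84 to 6.40, and MUC5B, from 2.49 to 4.29, were past the limit in all 8 alternatives, and SPDEF, from 1.60 to 2.19, in the 7 that gave it a value. TFF1 was past it in 7 of 8 and MUC5AC in 7 of 8, with MUC5AC lower in spheroid culture in the other. AGR2, from 0.83 to 1.41, and TFF3, from 0.86 to 1.30, were higher but under the limit in all alternatives that gave a value, and so was TFF2, from 0.50 to 1.17. MUC6 ranged from 0.09 to 0.34 and MUC2 from -0.39 to -0.25.

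**Figure D4:**
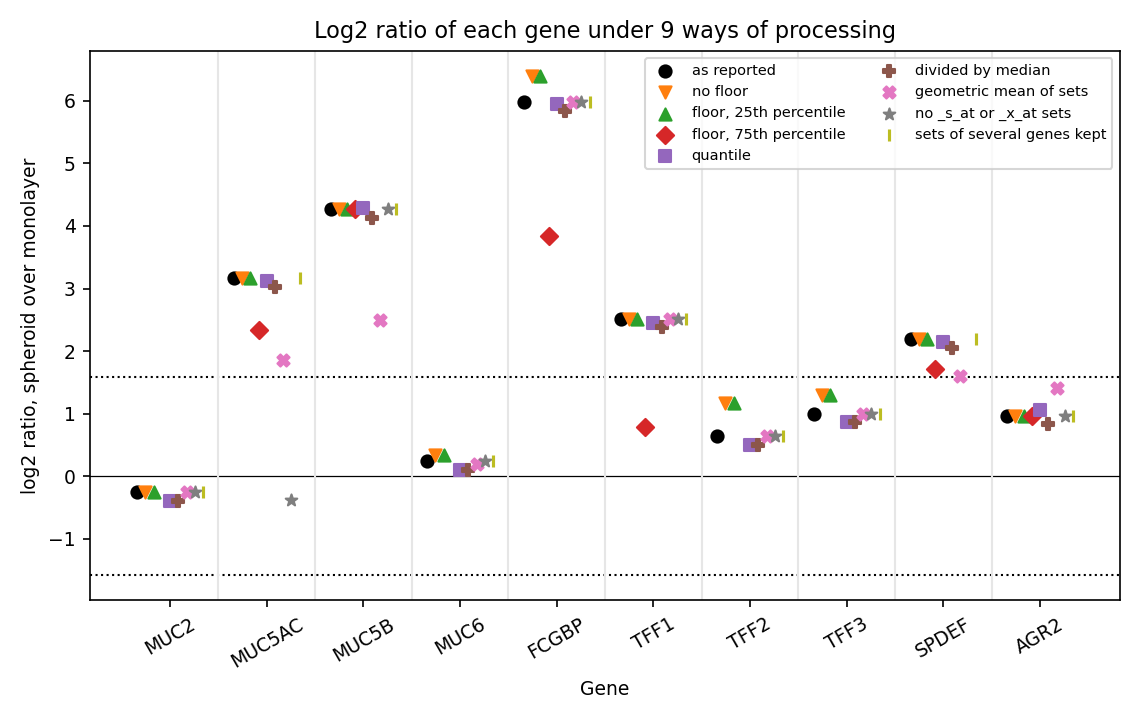
Log2 of the spheroid signal divided by the monolayer signal of each of the 10 genes under 9 ways of processing, 1 symbol each, with dotted lines at 3-fold; a gene at the floor on both arrays or without a probe set has no symbol. Most symbols of a gene lie close together, and those that stand apart are the geometric mean for MUC5B and MUC5AC, the floor at the 75th percentile for FCGBP and TFF1, and the probe sets ending in _at alone for MUC5AC.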

How the data were processed

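RNA from 1 monolayer and 1 spheroid culture of A549 cells was hybridised to Affymetrix Human U133 plus 2.0 arrays. The deposited values are signal intensities on a linear scale, made with MAS5 and GCOS according to the submitters' processing notes, with versions not given in the sources used here. They were already scaled per array and were not scaled again. Samples were mapped to cultures by their titles. Genes were named through the platform annotation, updated by Entrez identifier. Gene values came from the 41091 probe sets with 1 gene, and the 62 control probe sets were left out. The floors and the shares over all probe sets also counted probe sets with several genes or with none. Signals below each array's median were raised to it, and a bound that pointed away from the brighter array, as for 181 genes, was set to a log2 ratio of 0. With 1 array per culture no test was run, and precision is limited by the number of arrays. Calls were made at 3-fold. Named were all 10 genes, all genes of each related list past the limit and up to 3 others per list by signal, and the cluster neighbours. Genes named in addition, among them ATOH1, GFI1, CDX1, CDX2, NKX2-1, CLCA1, ZG16, RETNLB, CFTR, SCNN1A, GALNT14, AGR3, ERN2 and the markers at the floor, were chosen after their values were seen. The 10 genes and all lists were chosen with earlier results of these data known. The steps were tested on simulated arrays. Alternatives changed the floor, the scaling, the probe sets and the limit. Python 3.11.15, numpy 2.4.6, pandas 2.3.3 and matplotlib 3.10.9 were used.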

Additional observations from a re-analysis of the deposited data

How the results depend on the processing

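Of the 10 genes, 5 passed 3-fold upward and 0 downward. The count of higher genes was 3 when probe sets marked _s_at or _x_at were left out, which leaves SPDEF without a value and turns MUC5AC to a log2 ratio of -0.38, and the median of the genes was then 0.97. It was also 3, with a median of 0.98, without MUC5AC and MUC5B, an alternative chosen after seeing the data. It was 4 or 5 in all other alternatives, and none of them gave a gene at least 3-fold lower. TFF1 was under the limit with the floor at the 75th percentile, at 0.79. That floor left MUC2, MUC6, TFF2 and TFF3 at the floor in both cultures. Of the related genes, the 18 that were higher became 7 with that floor and 11 with probe sets averaged as a geometric mean. They became 15 after scaling to a common median, 28 at a limit of 2-fold and 5 at a limit of 5-fold. The 1 that was lower became 8 with no floor, 2 with the floor at the 25th percentile, 5 at 2-fold and 0 at 5-fold. The cause of these changes was not tested beyond what the alternatives themselves alter. After scaling of the arrays to a common median, the median log2 ratio of all genes moved from 0.02 to -0.10 and the genes past 3-fold from 309 higher and 279 lower to 249 and 344, and the floor at the 75th percentile gave 109 and 150. The median of the 10 genes, 1.59, was 1.75 with no floor or with the floor at the 25th percentile, 1.60 after quantile normalization, 1.45 after scaling to a common median and 1.51 with the geometric mean, and it was 2.03 over the 6 genes above the floor at the 75th percentile. The median of the related genes, 0.29, was 0.21, 0.24, 0.30, 0.15 and 0.27 with no floor, the lower floor, quantile normalization, a common median and the geometric mean, and 0.28 with probe sets of several genes kept. Without replicate arrays these shifts have no error to be set against. No paired analysis was possible because each culture has 1 array.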
